A study of Mus musculus with 2 samples.

Results

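Classical cadherins and protocadherins were compared between tooth and skin of newborn wild-type mice. The genes were those that the array names Cdh followed by a number, or Pcdh followed by anything, and control spots were left out. This gave 70 genes, of 24323 named genes on the array, measured by 98 probes of 60 bases in 116 spots. By name and family they were 5 type I classical cadherins, 13 type II classical cadherins, 5 other Cdh-named genes, 9 delta protocadherins, 3 other Pcdh-named genes and 7, 22 and 6 genes of the alpha, beta and gamma protocadherin clusters. Total RNA of each tissue was labelled with Cy3 and hybridised to 1 Agilent whole-genome mouse array per tissue, and both arrays lay on 1 slide. The labels give wild type and postnatal day 0 for both tissues and name no treatment, whereas the methods of the study place the dissection a day later, and the labels were followed here. The methods name C57BL/6J as the wild-type strain, and neither source states how many animals contributed to each array.

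Cadherins are membrane proteins that bind one another between neighbouring cells through calcium-dependent repeats outside the cell. Classical cadherins hold adherens junctions together and are tied to actin through the catenins, and which of them a cell carries helps to decide which neighbours it sticks to. Epithelia are known for E-cadherin and P-cadherin, mesenchyme and neural tissue for N-cadherin and cadherin 11, and endothelium for VE-cadherin. Protocadherins share the extracellular repeats but lack the classical catenin-binding tail. The alpha, beta and gamma protocadherins lie in tandem arrays of variable exons, and in the alpha and gamma arrays each variable exon is spliced to shared constant exons.

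As each tissue had 1 array, the spread between animals is not known, no test could be made and no difference below has a replicate check. A level is the log2 signal of a probe minus the 75th percentile of log2 signals on its array, and a difference is the skin level minus the tooth level, so a negative difference means higher in tooth. The probe with the highest mean stood for a gene. Levels of different probes were not calibrated against each other. This limits the summed levels of marker lists and the setting of Pcdhac1 beside Pcdhac2 below. The extraction software called each spot well above background or not, and a gene was measured when its probe passed on at least 1 array. Where it passed on 1 array only, the fold is a bound. The threshold for a called gene was 2-fold, which is 1 on the log2 scale. The scatter between spots of a probe gave a difference an SD of 0.12 from spots alone. The 75th percentile of signal was 428 for tooth and 276 for skin, and the lowest level called well above background was -4.52 and -3.73 respectively, so that the tooth array reached lower scaled levels. No spot of a member was saturated.

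Of the 70 genes, 46 were measured, 35 of them on both arrays, 10 in tooth alone and 1 in skin alone. The other 24 passed on neither array and are called dim here. Among the 46, 24 were at least 2-fold higher in tooth (52.2%) and 7 in skin (15.2%). The same shares over all 17409 measured named genes were 15.5% and 14.2%. These counts used dim values as measured. With dim values at their bound, 20 members were called higher in tooth and 7 in skin, where 13.3% and 14% of measured genes were. With dim values as measured, the median difference of the 46 was -1.03 (quartiles -1.90 and 0.31), against -0.04 for all measured genes. A gene that passed on a single array entered through the tissue where it was brighter, so the 35 genes measured on both arrays were counted apart. Of these, 15 were higher in tooth and 6 in skin, where 12.3% and 11.4% of the 15271 named genes measured on both arrays were, and the median was -0.36 against -0.02. The numbers depended on the background correction. With the normexp correction of the raw spot signal, which adds a constant of 50 to every signal, 8 members were called higher in tooth and 7 in skin, where 9.6% and 10% of measured genes were. Of the 31 calls, 15 kept their call under normexp, and 12 of the 16 that lost it were beta cluster genes.

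The labelled tissues carried their own markers. All 6 ameloblast markers measured, which include the enamel genes Amelx and Ambn, were at least 2-fold higher in tooth (median -10.81), as were all 6 odontoblast and bone markers (median -7.99). All 5 epidermal markers were higher in skin (median 9.11). Each sample held many cell types, and in such bulk RNA fewer cells of a type and less RNA per cell cannot be told apart.

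**Figure D1:**
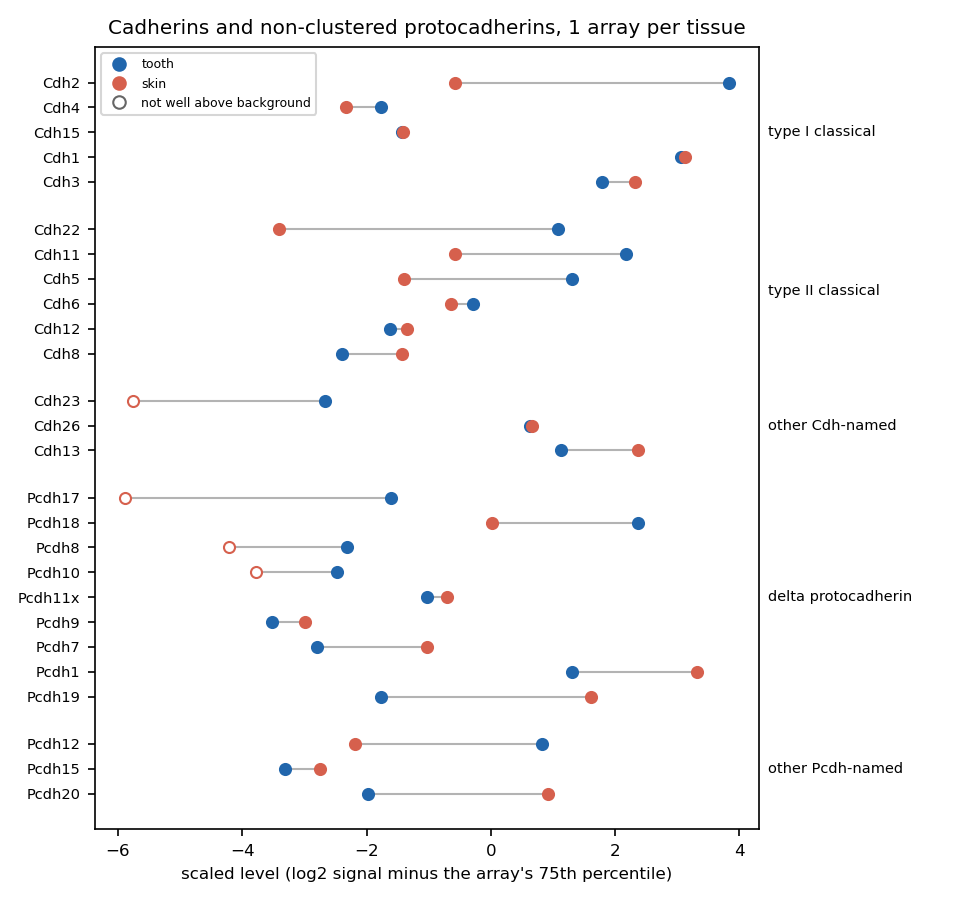
Scaled level (log2, horizontal axis) of the 26 measured cadherins and protocadherins outside the clusters on the tooth array (blue) and the skin array (red), 1 array each and therefore without error bars, grouped by family; open circles were not well above background. Cdh2 and Cdh22 lay furthest to the tooth side among genes filled in both colours, Pcdh19 and Pcdh20 furthest to the skin side, and the circles of Cdh1, Cdh15 and Cdh26 overlapped.

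The type I cadherins, which include the main cadherins of epithelium and of mesenchyme, were all measured on both arrays, and they split into 1 large difference and 4 below 2-fold. Cdh2, encoding N-cadherin of mesenchymal and neural cells, had a level of 3.83 in tooth and -0.58 in skin. It was 21.3-fold higher in tooth (difference -4.41), and its other probe gave -4.71. In contrast, Cdh1, which encodes E-cadherin of epithelia, was almost level between the tissues. Its probe was printed in repeated spots, and the lowest, median and highest levels were 2.98, 3.05 and 3.14 over 10 tooth spots and 3.08, 3.12 and 3.19 over 9 skin spots. The difference of 0.06 was of the order of the SD among spots, 0.055 and 0.037, and the spots of the 2 arrays overlapped. It was negative when the arrays were scaled by their medians or by spike-in controls, and after normexp correction. Cdh3, encoding P-cadherin of basal and placode epithelium, was at 1.79 and 2.32, and its difference of 0.53 changed sign under spike-in scaling. Cdh4, encoding R-cadherin, had -1.77 and -2.33, a difference of -0.56, with -0.20 from another probe and a further probe not well above background on either array. Cdh15, encoding M-cadherin of skeletal muscle precursors, was at -1.42 and -1.41, and its difference of 0.02 took the other sign when the arrays were scaled by their medians, by quantiles or by spike-ins.

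The Cdh1, Cdh3 and Cdh15 probes all lay on chromosome 8 in mm9, the first pair at chr8:109193812-109193871 and chr8:109079933-109079992, and the Cdh15 probe at chr8:125391031-125391090. Because no annotation of that build was used, the part of the transcript that a probe covers is not given.

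Type II cadherins, which lack the HAV adhesion motif of type I, gave 3 genes at least 2-fold higher in tooth and none in skin among the 6 measured of 13. All 6 were measured on both arrays, where 12.3% of named genes were called higher in tooth and 11.4% in skin. Cdh22, first known from pituitary and brain, was measured at 1.08 in tooth and -3.41 in skin. At 22.5-fold (difference -4.49) this was the lowest difference of any member measured on both arrays, and it came from a single probe at chr2:164937057-164937116 (mm9). After normexp correction it was -2.98, and Cdh2, at -4.09, was then the lower. Cdh2 was also the lower by its other probe (-4.71) and when a gene's probes were averaged (-4.56), so the order of these genes is not settled. Cdh11, a cadherin of mesenchyme and osteoblasts, was at 2.18 and -0.58, which is 6.75-fold higher in tooth, and its other probe gave -1.97. Cdh5, encoding VE-cadherin, the junction cadherin of endothelium, was at 1.30 and -1.40, which is 6.50-fold higher in tooth. These 3 genes stayed past 2-fold under all 9 alternative settings. Cdh6 (levels -0.29 and -0.65, difference -0.36), Cdh12 (levels -1.62 and -1.35, difference 0.27) and Cdh8 (levels -2.40 and -1.43, difference 0.97) lay within 2-fold, and both other probes of Cdh8 were dim on both arrays. The remaining 7, Cdh7, Cdh9, Cdh10, Cdh18, Cdh19, Cdh20 and Cdh24, were dim on both arrays. Most of these are known from neurons, and Cdh19 from Schwann cell precursors.

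Among the other Cdh-named genes, Cdh13, encoding T-cadherin, which is held in the membrane by a lipid anchor and has no cytoplasmic tail, was higher in skin. Its levels were 1.14 and 2.37, a difference of 1.23 or 2.35-fold, and a further probe was dim. The difference passed below 2-fold when the arrays were scaled by their medians or by spike-ins, and when the gene's probes were averaged. Cdh26 was at 0.64 and 0.66. Cdh23, part of the tip links of inner ear hair cells, was well above background on the tooth array only (level -2.67), at least 2.09-fold higher than in skin, and came within 2-fold after normexp correction. Cdh16 of kidney and Cdh17 of intestine and liver were dim on both arrays. Among the kidney and gut markers Slc12a1, Umod and Vil1 were dim on both arrays as well, and Lgals4 was measured, with a difference of 3.23.

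Delta protocadherins, single-gene protocadherins with conserved motifs in their tails, were all measured, and the 9 genes went both ways. For comparison, 15.5% of all measured named genes were called higher in tooth and 14.2% in skin. Past 2-fold toward skin there were 3 genes. Pcdh19, an X-linked gene, was at -1.77 in tooth and 1.62 in skin, which is 10.5-fold higher in skin (difference 3.39) at chrX:130122356-130122415 (mm9). Its difference was 2.79 after normexp correction. Pcdh1 was at 1.31 and 3.32, which is 4.02-fold higher in skin. Averaged with its other, dim probe it gave a difference of 1.39. Pcdh7 was at -2.80 and -1.03, which is 3.42-fold higher in skin, but its other probes were dim on both arrays and the call was lost when probes were averaged. Toward tooth there were 4 genes. Pcdh18 was measured on both arrays, at 2.36 and 0.03, and was 5.06-fold higher in tooth (difference -2.34). Pcdh17, Pcdh8 and Pcdh10 passed on the tooth array alone, at levels of -1.60, -2.32 and -2.48, with bounds of at least 4.38-fold, 2.66-fold and 2.39-fold. After normexp correction Pcdh8 and Pcdh10 were within 2-fold, and Pcdh17 was at -1.11. Pcdh11x (levels -1.03 and -0.70) and Pcdh9 (levels -3.52 and -2.99) were within 2-fold, and another Pcdh9 probe pointed the opposite way, being measured in tooth only, at least 1.24-fold. The median over the delta genes was 0.32, and it was negative under spike-in scaling and with probes averaged, so the family had no settled direction.

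Of the other single Pcdh genes, Pcdh20 was higher in skin, with levels of -1.97 and 0.92 (7.45-fold, difference 2.90, and 2.23 after normexp correction). Pcdh15, the partner of Cdh23 in tip links, was at -3.30 and -2.75, and the difference of 0.55 came from 1 of its 7 probes, the others being dim on both arrays. The probes of Pcdh20 and Pcdh17 lay on chromosome 14 in mm9, at chr14:88865889-88865948 and chr14:84933861-84933920. The pair differed in opposite directions.

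The 250 bases upstream of the annotated start are shown for 4 genes with large differences, Cdh22 and Pcdh17 on the tooth side and Pcdh19 and Pcdh20 on the skin side. The sequences are from RefSeq on GRCm38.p6, each 5′ to 3′ on the strand of its gene, and capitals mark CG dinucleotides, the sites of DNA methylation in mammals. Methylation was not measured here.
Cdh22, chr2:165234738-165234987, minus strand: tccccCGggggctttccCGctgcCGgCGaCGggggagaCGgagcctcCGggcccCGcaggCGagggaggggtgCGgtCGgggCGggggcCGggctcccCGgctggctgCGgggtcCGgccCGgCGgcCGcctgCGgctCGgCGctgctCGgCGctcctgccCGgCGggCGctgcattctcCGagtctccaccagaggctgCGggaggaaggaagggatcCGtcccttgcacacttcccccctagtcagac
Pcdh17, chr14:84443313-84443562, plus strand: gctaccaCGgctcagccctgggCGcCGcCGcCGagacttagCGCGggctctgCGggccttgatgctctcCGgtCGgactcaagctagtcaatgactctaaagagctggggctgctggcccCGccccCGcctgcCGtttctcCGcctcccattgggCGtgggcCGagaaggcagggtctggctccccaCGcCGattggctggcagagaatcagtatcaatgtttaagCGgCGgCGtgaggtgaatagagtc
Pcdh19, chrX:133688994-133689243, minus strand: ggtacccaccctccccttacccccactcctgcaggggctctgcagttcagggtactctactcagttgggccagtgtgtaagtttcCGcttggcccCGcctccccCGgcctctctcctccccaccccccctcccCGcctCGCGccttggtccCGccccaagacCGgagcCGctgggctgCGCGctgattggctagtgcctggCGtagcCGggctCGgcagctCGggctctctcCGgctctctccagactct
Pcdh20, chr14:88471397-88471646, minus strand: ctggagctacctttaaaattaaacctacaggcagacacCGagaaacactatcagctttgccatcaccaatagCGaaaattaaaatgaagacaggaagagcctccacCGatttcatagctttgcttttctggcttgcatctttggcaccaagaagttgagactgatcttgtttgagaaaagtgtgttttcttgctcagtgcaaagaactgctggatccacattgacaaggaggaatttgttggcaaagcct
Cdh22 held 30 CG dinucleotides in this window, Pcdh17 held 21, Pcdh19 held 16 and Pcdh20 held 3. As many or more were in 5.94%, 16.3%, 25.4% and 71% of the 32851 upstream windows in the table, where the median was 6 and 92.1% held at least 1. The 25 windows that matched 22 of the genes had a median of 10. Among the other called genes with a window, Pcdh18, Pcdh10, Pcdh8 and Cdh23 on the tooth side held 23, 22, 11 and 5. Pcdh7 on the skin side held 7. A relation between these numbers and the differences was not tested. CACCTG, or CAGGTG on the other strand, are the letters that Snail and Zeb repressors of Cdh1 bind. Cdh1 itself, Cdh2 and the clustered protocadherins had no window in the table, so their upstream bases were not searched. The letters were in 3 of the 25 windows (12%), belonging to Cdh7 and Pcdh15, against 17.2% of all windows. None of the sequences shown held them. These are matches of letters only.

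Pcdh12, an endothelial protocadherin, was measured at 0.83 in tooth and -2.19 in skin, which is 8.08-fold higher in tooth (difference -3.01, and -2.14 after normexp correction). It was the protocadherin outside the clusters that lay furthest to the tooth side among those measured on both arrays. Of 10 endothelial marker genes, all measured, 6 were at least 2-fold higher in tooth and none in skin, with a median of -1.57. They ranged from -3.10 for Emcn to 0.50 for Pecam1, and Tek, among the 6, passed in tooth alone. Of all measured named genes, 15.5% were called higher in tooth and 14.2% in skin. Kdr was at 0.43 by its brighter probe and at -2.18 by another probe measured on both arrays, so its direction was not settled. The summed linear level of the list was 82.0 in tooth and 59.2 in skin, a sum led by Kdr and Egfl7. The part of endothelial content in the values of Cdh5 and Pcdh12 was not tested.

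Markers of mesenchyme were set beside Cdh2, Cdh11 and Pcdh18. Of 5 such markers 3 were at least 2-fold higher in tooth (Col1a1, Pdgfrb and Pdgfra), with a median of -2.43, whereas Vim (-0.98) and Col3a1 (0.13) were within 2-fold. The summed linear level of the 5 was 603 in tooth and 152 in skin, and in tooth most of it came from Col1a1 alone. Of 6 general epithelial markers, 1 was higher in skin (Krt14) and 1 in tooth (Krt18), with a median of 0.42, beside the 0.06 of Cdh1 and the 0.53 of Cdh3. Skeletal muscle genes gave a different picture. All 8 measured of 10 muscle markers were at least 2-fold higher in skin, with a median of 3.37, whereas Cdh15 stood at 0.02. Pax7 and Myod1, of muscle precursors, were dim on both arrays. Myog, among the 8, passed on the skin array alone and was at least 3.49-fold higher in skin. Of 7 measured Schwann cell markers 2 were higher in skin (Sox10 and Erbb3) and 3 in tooth (S100b, Ngfr and Mbp), of which Mbp was at -1.02 by its brighter probe and at 0.03 by another. Past 2-fold toward tooth were 4 of 8 measured neuronal markers, of which Nefl and Rbfox3 passed in tooth alone. The shares over all measured named genes, beside which these marker counts stand, were 15.5% toward tooth and 14.2% toward skin. The part of these cell types in the values of the cadherins was not tested.

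**Figure D2:**
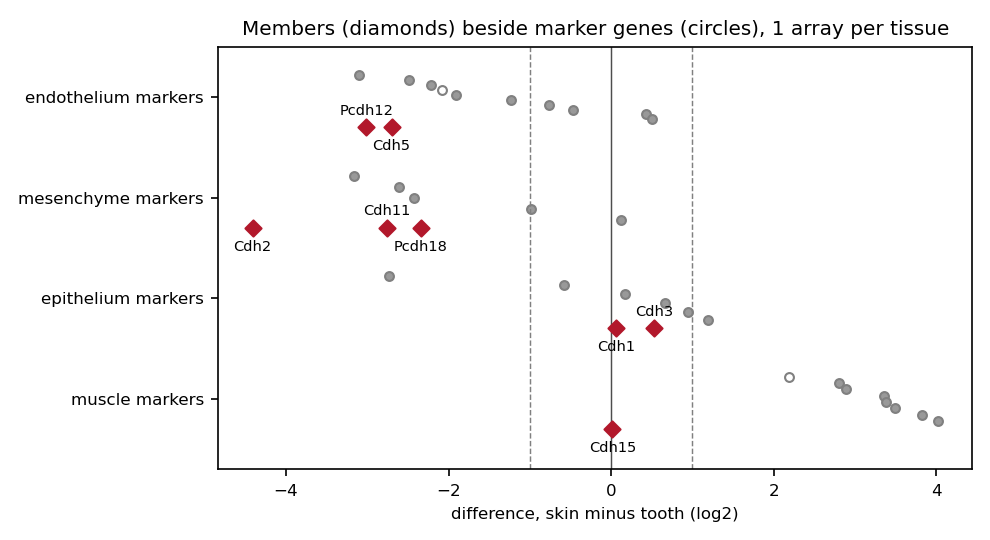
Differences between skin and tooth (log2, horizontal axis; dashed lines mark 2-fold) of marker genes for endothelium, mesenchyme, epithelium and muscle (grey circles, open where well above background on 1 array only), with cadherins known from the same cells as red diamonds. Each point is the difference of 1 skin and 1 tooth array, and Cdh15 at 0.02 lay outside the range of the muscle markers, 2.19 to 4.02.

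The clustered protocadherins lay in tandem on chromosome 18, and their probes covered 886.6 kb in mm9 from the first alpha probe to the last gamma probe. Of these 35 genes 20 were measured, of which 14 were at least 2-fold higher in tooth (70%) and 2 in skin (10%). Over all measured named genes the shares were 15.5% and 14.2%. Of the 20, 6 passed in tooth alone and 1 in skin alone. Among the 13 measured on both arrays, 9 were called higher in tooth and 1 in skin, where 12.3% and 11.4% of all such genes were. The probes of different member genes shared at most 14 bases in a row over all 4704 pairs, and at most 12 among the 231 pairs within the beta cluster. Probes were compared only with each other and not with whole transcripts. Whether transcripts of paralogs bind a probe, with or without mismatches, was not tested, so single members of the clusters remain uncertain.

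In the beta cluster, whose 22 genes are single coding exons with no constant exon, 15 were measured and 14 of them were higher in tooth. Of the 15, 12 were at least 2-fold higher in tooth and 1 in skin, with a median of -1.41. Among the 10 genes measured on both arrays, 8 were at least 2-fold higher in tooth. Pcdhb7 was at -0.86 in tooth and -2.76 in skin (3.74-fold), Pcdhb14 at -1.37 and -2.94 (2.98-fold) and Pcdhb17 at -0.25 and -1.77 (2.87-fold). The other 5 beta genes called and measured on both arrays, Pcdhb16, Pcdhb18, Pcdhb20, Pcdhb21 and Pcdhb22, lay between -1.03 and -1.41. Pcdhb12 went the other way, at -1.24 and 0.05, which is 2.45-fold higher in skin (difference 1.29), and its probe lay between those of Pcdhb11 and Pcdhb13 in the same row of genes. Of the 5 genes well above background on the tooth array only, Pcdhb10 was at least 1.91-fold and Pcdhb4 at least 1.79-fold higher in tooth, and Pcdhb13 allowed no fold. The probe of Pcdhb3 was printed in repeated spots, which ran from -3.57 to -2.96 in tooth (9 spots, all well above background) and from -5.92 to -4.80 in skin (10 spots, 0 well above background). Its spots did not overlap between the arrays, but all skin spots lay below the lowest skin level called well above background, -3.73. The gap therefore gives no size. Its bound was 1.41-fold, and its difference was -0.05 after normexp correction.

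The size of the beta cluster difference rested on how background was treated. After normexp correction the beta median was -0.47, 12 of 15 were still higher in tooth, and none remained at least 2-fold higher in tooth. With dim values held at their bound 8 remained, and under median, quantile and spike-in scaling 14 were. Pcdhb12 kept its call under normexp and quantile scaling and fell within 2-fold under spike-in scaling. The 7 beta genes Pcdhb1, Pcdhb2, Pcdhb5, Pcdhb8, Pcdhb9, Pcdhb11 and Pcdhb19 were dim on both arrays.

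**Figure D3:**
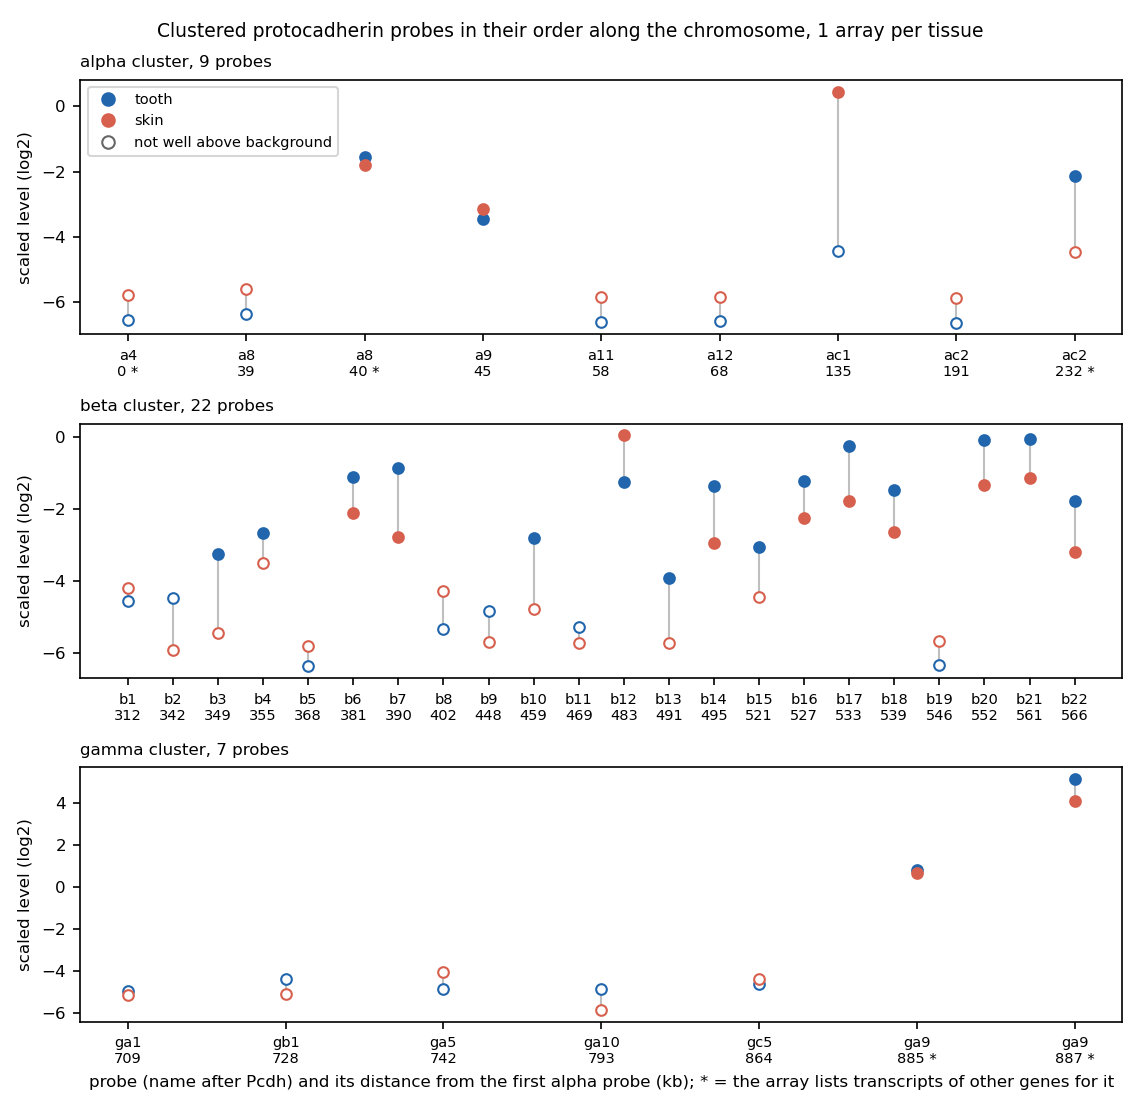
Scaled level (log2, vertical axis) of every probe of the alpha, beta and gamma clusters on the tooth array (blue) and the skin array (red), 1 array each, in chromosomal order with the distance from the first alpha probe in kb; open circles were not well above background, and a star marks probes for which the array lists transcripts of other genes. Filled pairs of the beta cluster had the tooth circle on top, except for Pcdhb12 at 483 kb.

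The alpha cluster had 4 of 7 genes measured, and the probes named for its C-type members went opposite ways. Pcdhac1 passed on the skin array alone, at 0.46, against -4.43 in tooth, and was at least 29.6-fold higher in skin at chr18:37249950-37250009 (mm9). This bound depended on the background, as the difference was 4.89 with the dim value as measured and 2.83 after normexp correction. Pcdhac2 was measured on the tooth array only, at -2.14, at least 3.02-fold higher in tooth, but by a probe 41.5 kb downstream of its other probe. The array lists transcripts of Pcdha4, Pcdha9 and Pcdhac1 for that downstream probe too, so it does not separate the alpha genes. It was dim in skin (-4.47), where the probe of Pcdhac1 was at 0.46, and this disagreement was not resolved. The Pcdhac2 call was lost under normexp (-0.61) and when its probes were averaged (-0.79), so the direction of Pcdhac2 is not settled. The other Pcdhac2 probe was dim on both arrays. Pcdha8, whose probe is likewise listed for Pcdha4 and Pcdha7, was at -1.56 and -1.80, and Pcdha9 was at -3.45 and -3.15. Pcdha4, Pcdha11 and Pcdha12 were dim on both arrays.

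Of the 6 gamma genes only Pcdhga9 was measured. Its brighter probe was at 5.15 in tooth and 4.13 in skin, which is -1.03 apart, and its other probe was at 0.83 and 0.68, which is -0.15 apart. These probes lay 22.1 and 20.5 kb downstream of the Pcdhgc5 probe, and the array lists transcripts of Pcdhga5 and Pcdhga6 for both. Their signal is therefore not particular to Pcdhga9, and the mean of both probes, -0.59, was within 2-fold. The probes of Pcdhga1, Pcdhga5, Pcdhga10, Pcdhgb1 and Pcdhgc5 were dim on both arrays.

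The members nearest the 2-fold threshold were listed among genes measured on both arrays. On the skin side Cdh13 (1.23) and Pcdhb12 (1.29) were inside, and Cdh8 (0.97) and Pcdh15 (0.55) outside. On the tooth side Pcdhga9 and Pcdhb16 (both -1.03) were inside, and Pcdhb6 (-0.99) and Cdh4 (-0.56) outside. Pcdhb4, which passed in tooth alone, was at -0.84 with its dim value as measured.

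**Figure D4:**
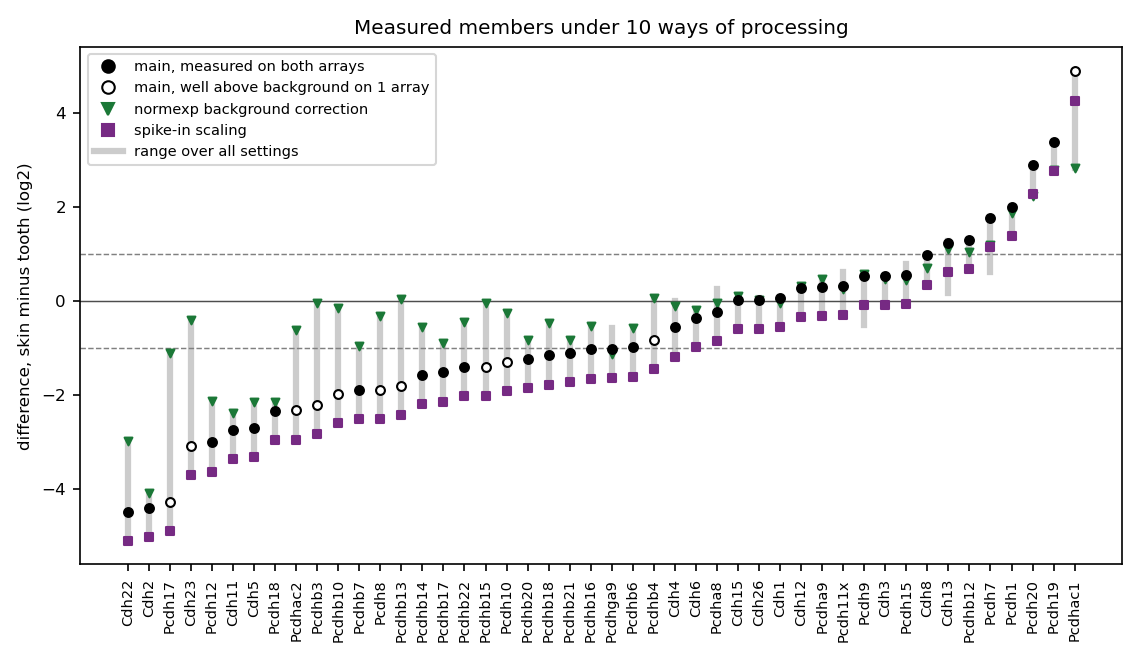
Difference between skin and tooth (log2, vertical axis; dashed lines mark 2-fold) of the 46 measured genes, ordered by the value as reported (black; open where well above background on 1 array only), with the normexp value (green), the spike-in value (purple) and the range over all 10 settings (grey bar). Normexp values of the beta cluster genes lay closer to 0 than the reported ones, and those of Cdh2, Cdh22, Cdh11, Cdh5, Pcdh12 and Pcdh18 stayed below -1.

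Of the catenins, which link classical cadherins to actin, 8 of 9 were measured and 6 lay within 2-fold, with a median of -0.24. Ctnnb1, encoding beta-catenin, was at 5.42 in tooth and 4.65 in skin, Ctnnd1, encoding p120, differed by 0.32, and Ctnna1, encoding alpha-E-catenin, was at 5.30 and 5.18. Jup, encoding plakoglobin, which also serves desmosomes, was at -2.65 and 0.05, a difference of 2.69 toward skin. Ctnna2, encoding alpha-N-catenin, known as a partner of N-cadherin in neurons, reached 6.20 in tooth and was dim in skin, at least 975-fold higher in tooth. It lay on the same side as Cdh2. Ctnna3 was dim on both arrays.

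Among 11 other partners of adherens junctions, Plekha7 (2.17) and Mllt4, the afadin gene (1.03), passed 2-fold toward skin and Pvrl3, a nectin gene, toward tooth (-1.12), although another Pvrl3 probe gave 0.80. None of 7 genes for cadherin shedding and turnover passed 2-fold (median -0.03). Of 7 known repressors of Cdh1, Snai1 (-1.75) and Zeb1 (-1.26) were higher in tooth and none in skin, with a median of -0.16, beside the Cdh1 difference of 0.06. Among named genes measured on both arrays, as these were, 12.3% were called higher in tooth and 11.4% in skin. All 9 genes that bind or silence the protocadherin clusters, including Ctcf, the cohesin subunits and Smchd1, were within 2-fold, with a median of -0.02. The beta cluster had a median of -1.41, and the part of these genes in it was not tested. Genes of the marker and partner lists were read under the reported scaling only, and the alternative settings were not applied to them singly.

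The wider cadherin superfamily, with the giant Fat and Dachsous cadherins, the seven-pass Celsr proteins of planar polarity and the calsyntenins, had 15 of 17 genes measured, of which 7 were at least 2-fold higher in tooth and 1 in skin, with a median of -0.86. Over all measured named genes, 15.5% were called higher in tooth and 14.2% in skin. Measured on both arrays, Dchs1 was at 2.30 and -0.01 (difference -2.31), Celsr1 differed by -1.73, Clstn2 by -1.58 and Fat1 by -1.44. Fat4 and Fat3 passed on the tooth array alone, at least 5.58-fold and 5.14-fold higher in tooth. Cdhr1 did so as well, and although it was counted as called, its bound was only 1.69-fold. Dchs2 and Cdhr3 also passed in tooth alone, were not called and allowed no fold. These genes entered through the tissue where they were brighter, and no gene of the list passed in skin alone. Celsr3 was the gene higher in skin, with a difference of 1.81.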

How the data were processed

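RNA of 1 tooth and 1 skin sample was measured, and samples were grouped by their labels. The deposited values were spot intensities from Agilent Feature Extraction (10.7.3.1), background-subtracted and detrended, with surrogates for the dimmest spots. The authors' table of ratios held the same intensities divided by 1 factor per array (430.7 for tooth, 274.5 for skin), the 75th percentile of all spots, uncentred, with column medians of 0.081 and 0.0989. The methods named GeneSpring, a filter on low signal and a percentile shift. Spots called outliers were left out (1 member spot per array), spots of a probe were averaged on the log2 scale, and the 75th percentile over non-control probes was subtracted. A probe passed when more than 50% of its spots were well above background. A bound set the bright value against the higher of the dim value and the lowest level well above background on the dim array. Counts and medians used dim values as measured. Precision is limited by the number of arrays. SD among spots had a median of 0.077 and 0.088 (294 and 284 probes with at least 8 spots).

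Names came from accessions matched to RefSeq (GRCm38.p6), which 87 of 98 member probes did; coordinates of probes are mm9 as the headers state. RefSeq held 93 genes with names of this kind, 23 of them not among the 70. Every member could be named, with values for the measured cadherins, the single protocadherins and the clustered genes with the 3 largest differences or the 2 largest bounds in each direction. Members and lists were chosen with earlier results of these data known. Alternatives were median, quantile and spike-in scaling (8 spike-ins), normexp (offset 50), other filters on dim probes, dim values at their bound, the mean of a gene's probes, and the deposited table. They were reported for members and for counts over all genes, not for single genes of the lists. Python 3.11.15, numpy 2.4.6, pandas 2.3.3, R 4.3.3 and limma 3.58.1 were used.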

Additional observations from a re-analysis of the deposited data

Results flagged for a closer look

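Some probes that entered no comparison carried signal. Of the 98 probes, 47 failed the stricter call on both arrays. By the more lenient call of the extraction software, signal significantly above background, 28 of these 47 passed on the tooth array (59.6%, exact 95% binomial interval 44.3 to 73.6) and 14 on the skin array (29.8%, interval 17.3 to 44.9). Among 308 negative-control spots the same call passed 10 on the tooth array (3.25%, interval 1.57 to 5.89) and 8 on the skin array (2.6%, interval 1.13 to 5.05). The same share over dim probes of other genes was not computed, so neither the shares nor their difference can be called particular to these members. The intervals reflect only how many probes were counted, and the difference between the arrays has no replicate check. The tooth array reached lower scaled levels, and its part in this difference was not tested. Of the 24 genes that were dim on both arrays, Cdh9, Cdh17, Cdh20, Cdh24, Pcdhb1, Pcdhb8, Pcdhb9, Pcdhga1, Pcdhga5, Pcdhgb1 and Pcdhgc5 passed the lenient call on both arrays, and Cdh7, Pcdha4, Pcdha11 and Pcdha12 on neither.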

How the results depend on the processing

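The 24 members at least 2-fold higher in tooth became 8 after normexp correction and 15 when genes had to be well above background on both arrays. The other alternatives gave 20 to 28, and the count higher in skin lay between 5 and 10 throughout. The median of -1.03 was -0.13 after normexp, -0.36 for genes well above background on both arrays, -0.48 with no filter on dim probes, -0.76 with dim values at their bound, -1.28 under median scaling and -1.65 under spike-in scaling. Median and spike-in scaling moved the median of all measured genes as well, to -0.29 and -0.67, and the share of all measured genes called higher in tooth to 20.1% and 32.4%. Of the called genes, Pcdhb13 alone changed sign, to 0.033 after normexp. The normexp offset draws dim values together by construction. The class medians of the type I cadherins, the other Cdh-named genes, the delta protocadherins, the other Pcdh-named genes and the alpha cluster changed sign under at least 1 scaling, so these classes have no settled direction, and 9 members within 2-fold changed sign under spike-in scaling. No paired analysis was possible because each tissue had 1 array, and no replicate could be left out for the same reason. Dim probes limit the bounds: the floor on the skin array lay above that on the tooth array, and values below it have no order.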
